A study of Mus musculus with 6 samples.

Results

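The genes described here are 9 components of the Nodal and Activin signalling pathway: the ligand Nodal, its coreceptor Tdgf1, the receptors Acvr1b and Acvr2b, the secreted inhibitors Lefty1, Lefty2 and Cer1, and the intracellular inhibitors Smad7 and Skil. They were chosen by gene symbol from the 55401 genes of the count table, and each symbol matched exactly 1 row. RNA came from V6.5, a mouse embryonic stem cell line derived from hybrid embryos. Wild-type cells (WT, genotype WT, 3 libraries) were set against Cdh1-/- cells (3 libraries), labelled as homozygous null for the gene of the adhesion protein E-cadherin and called the mutant below (knockout or KO in the plots). The labels name no treatment for either group. How the Cdh1 alleles were disrupted, whether the mutant line is 1 clone, and the culture medium are not given in the sources used here. Nothing in the labels says that the libraries A, B and C of a genotype came from separate cultures, so p-values measure the spread between these libraries, which may be technical.

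Nodal and the activins belong to the TGF-beta family of secreted growth factors. They bind a pair of serine/threonine kinase receptors, of which Acvr2b is a type II and Acvr1b a type I member, and Nodal, unlike activin, also needs the membrane-anchored coreceptor encoded by Tdgf1 (Cripto). The receptors phosphorylate Smad2 and Smad3, which enter the nucleus with Smad4 and act with DNA-binding partners such as Foxh1. Lefty1, Lefty2 and Nodal itself are classical targets of this signal, and the Lefty proteins block Nodal outside the cell, which closes a negative feedback loop. In pluripotent cells the pathway is known for its part in the exit from the naive state and in mesendoderm formation.

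Sequences upstream of the start site are shown for the 3 members that rose, so that their start regions can be compared. The RefSeq promoter table (build GRCm38.p6) held 5 of the 9 members. Each line gives the 250 bases before the annotated start, read along the gene's strand, at chr10:61417722-61417971 (plus strand) for Nodal, chr9:110946159-110946408 (minus strand) for Tdgf1 and chr15:101173822-101174071 (plus strand) for Acvr1b. Capitals mark matches, on either strand, to CAGAC (the Smad-binding element), TGTNNATT (a loose form of the Foxh1 motif) and CTTTG (the core of TCF/LEF motifs).
Nodal: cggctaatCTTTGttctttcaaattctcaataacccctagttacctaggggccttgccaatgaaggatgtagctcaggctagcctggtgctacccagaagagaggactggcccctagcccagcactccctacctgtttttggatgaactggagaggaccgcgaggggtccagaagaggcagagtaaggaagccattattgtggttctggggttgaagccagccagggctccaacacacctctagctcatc
Tdgf1: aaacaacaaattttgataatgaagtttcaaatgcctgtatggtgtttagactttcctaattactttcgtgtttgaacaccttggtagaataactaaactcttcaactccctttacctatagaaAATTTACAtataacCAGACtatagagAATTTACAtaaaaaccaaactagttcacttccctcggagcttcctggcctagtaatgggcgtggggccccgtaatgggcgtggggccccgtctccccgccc
Acvr1b: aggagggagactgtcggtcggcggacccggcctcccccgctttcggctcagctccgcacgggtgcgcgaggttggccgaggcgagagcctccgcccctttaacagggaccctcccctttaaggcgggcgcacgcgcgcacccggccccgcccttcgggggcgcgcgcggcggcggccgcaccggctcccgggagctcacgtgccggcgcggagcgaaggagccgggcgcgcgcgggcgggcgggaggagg

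In the Tdgf1 window 2 matches to TGTNNATT, beginning 127 and 101 bases before the start, stood on both sides of a CAGAC match beginning 113 bases before it. None of the matches overlapped another. The Nodal window held 1 CTTTG match, 242 bases before the start, and the Acvr1b window held no match to the 3 motifs. Of the members with a window that were not called higher, Acvr2b held CAGAC at 233 and CTTTG at 77 bases before the start. Cer1 held CAGAC at 213 and CTTTG at 139 and 79 bases before it, and neither of these windows held TGTNNATT. Of all 32851 promoter windows of the same length, 10.9% held TGTNNATT, 42.2% held CAGAC and 48.6% held CTTTG. A match is a description of letters and was not tested as a binding site.

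Lefty1 and Lefty2 are neighbouring, closely related genes, so it matters whether reads can be assigned to one or the other. Their coding sequences were both 1107 bases long and 91.9% identical, with 90 differing bases and a longest shared run of 140 bases. Of all 100-base stretches of the Lefty1 coding transcript, 95.2% did not occur in Lefty2 transcripts, and in the other direction 96.9% did not occur in Lefty1. The 60 coding bases with the most differences, 18, lay in exon 1 of both genes, at chr1:180935143-180935202 in Lefty1 and chr1:180893217-180893276 in Lefty2 (GRCm38, plus strand). Capitals mark the bases at which the genes differ.
Lefty1: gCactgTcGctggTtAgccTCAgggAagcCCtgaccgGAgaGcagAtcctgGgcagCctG
Lefty2: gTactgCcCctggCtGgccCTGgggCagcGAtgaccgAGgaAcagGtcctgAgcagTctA

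The libraries held between 18020719 and 23381942 counts. Levels are counts per 1000000 (CPM) after TMM scaling, and differences were tested with edgeR's quasi-likelihood test with Benjamini-Hochberg adjustment over all 17325 tested genes, a gene being called at an adjusted p under 0.05. Cdh1 itself, whose level checks the labels, averaged 559 ± 19.1 CPM in WT against 173 ± 9.05 CPM in the mutant (SD, n = 3), with a log2 fold change, mutant minus WT (log2FC), of -1.70 (standard error, SE, 0.08, adjusted p 2.9e-08). Mutant A differed more from the other mutant libraries than any other pair of one genotype did, with a chi-square per degree of freedom of 17.9 against B and 18.4 against C, compared with 8.14 to 11.7 for the remaining pairs. Values without that library are given where they change a call. The median of chromosome 1, which carries Lefty1 and Lefty2, relative to WT and to the other autosomes, was lower in the mutant, at log2 values between -0.33 and -0.29 in the 3 libraries.

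Of the 9 members, 8 had enough counts to be tested, and 4 were called, 3 higher and 1 lower in the mutant. Over all tested genes 13.3% were called, 7.6% higher and 5.71% lower. Nodal, Tdgf1 and Acvr1b rose and Lefty1 fell, while Lefty2, Acvr2b, Smad7 and Skil were not called and Cer1 had no counts. The 4 called members were also the only tested members whose WT and mutant libraries did not overlap, a separation found for 30.7% of all tested genes. The median log2FC of the 8 tested members was 0.17, against -0.01 for all tested genes. In bulk RNA, fewer cells expressing a gene and less RNA per cell cannot be told apart.

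**Figure D1:**
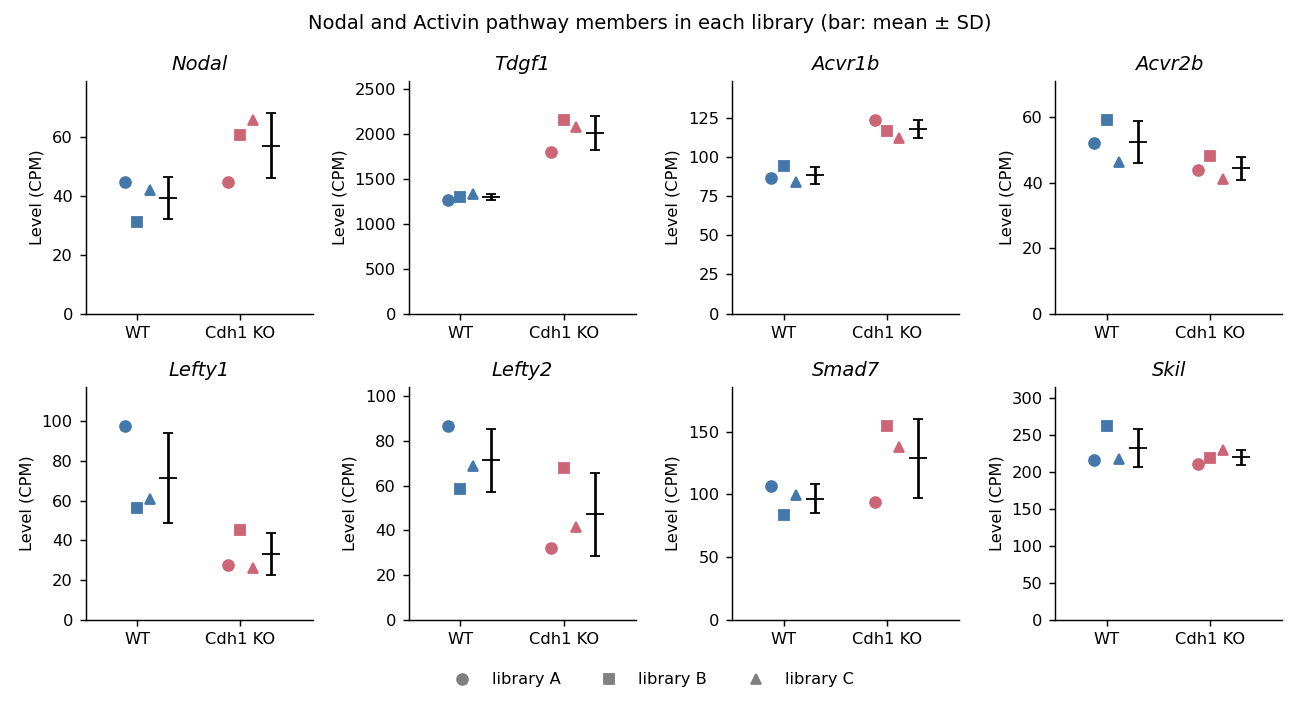
Level in CPM (vertical axes, each from 0) of the 8 tested members in the 3 WT libraries (blue) and the 3 Cdh1 mutant libraries (red), with circles for library A, squares for B, triangles for C and the mean ± SD in black. Tdgf1, Acvr1b, Nodal and Lefty1 are separated between genotypes, Nodal by the narrow gap between 44.5 CPM in WT A and 44.8 CPM in mutant A.

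Nodal (ENSMUSG00000037171.6, chromosome 10, 61417972 to 61425338, plus strand) encodes the ligand. It was counted at 44.5, 31.1 and 41.8 CPM in WT libraries A, B and C and at 44.8, 60.4 and 65.7 CPM in mutant libraries A, B and C. Mutant B and C lay well above every WT library, whereas mutant A was level with the highest of them. The mean rose from 39.2 ± 7.09 CPM to 57.0 ± 10.9 CPM, a log2FC of 0.54 (SE 0.15, adjusted p 0.0278). The call depended on single libraries, with an adjusted p of 0.146 without WT B, 0.0603 without WT C, 0.107 without mutant B and 0.137 without mutant C. Without mutant A the log2FC was 0.69 (adjusted p 0.000798), and without both A libraries it was 0.79 (adjusted p 0.00126).

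Tdgf1 (ENSMUSG00000032494.12, chromosome 9, 110939603 to 110946158, minus strand), the coreceptor gene, was by far the most abundant member. Its level was 1270, 1303 and 1334 CPM in the WT libraries and 1797, 2161 and 2083 CPM in the mutant libraries. The WT values lay close together, and the lowest mutant library, A, was above all of them. Tdgf1 rose by a log2FC of 0.63 (SE 0.08, adjusted p 0.000175), and it was called in all 17 alternative fits, with values from 0.59 to 0.71. The processed pseudogene Tdgf1-ps1 on chromosome 16, named after its values were seen, had a level of 33.8 ± 3.98 CPM in WT against 65.6 ± 3.38 CPM in the mutant (log2FC 0.96, adjusted p 4.5e-05). Of the 100-base stretches of the Tdgf1 transcript, 95.3% did not occur in this pseudogene. How much of the pseudogene itself occurs in Tdgf1, which had a far higher level, was not computed. Reads from the shared stretches cannot be assigned to one or the other, so the pseudogene's value is uncertain.

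Of the receptor genes among the members, 1 of 2 was called. Acvr1b (ENSMUSG00000000532.11, chromosome 15, 101174067 to 101213684, plus strand), which encodes the type I receptor ALK4, was at 86.8, 94.0 and 83.8 CPM in WT and at 124, 117 and 112 CPM in the mutant. The lowest mutant library exceeded the highest WT library. Acvr1b rose by a log2FC of 0.41 (SE 0.09, adjusted p 0.00520) and was called in all 17 alternative fits. Acvr2b (ENSMUSG00000061393.14, chromosome 9, 119402118 to 119434995, plus strand), a type II receptor, was at 52.1, 59.2 and 46.4 CPM in WT and at 43.9, 48.1 and 41.1 CPM in the mutant. The libraries overlapped, and its log2FC of -0.24 (SE 0.11, adjusted p 0.182) was not called in any of the 17 alternative fits.

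With all libraries, Lefty1 had the largest log2FC in size among the members, but without both A libraries that of Nodal was larger. Lefty1 (ENSMUSG00000038793.8, chromosome 1, 180935022 to 180938400, plus strand) was at 97.7, 56.2 and 60.9 CPM in WT and at 27.7, 45.4 and 26.2 CPM in the mutant. WT A was well above the other WT libraries and mutant B above the other mutant libraries, yet the groups did not overlap. The mean fell from 71.6 ± 22.7 CPM to 33.1 ± 10.7 CPM, a log2FC of -1.11 (SE 0.21, adjusted p 0.00278). After the median of chromosome 1 was removed from each library, the log2FC was -0.79 (adjusted p 0.0306). Without WT A it was -0.82 (adjusted p 0.0224), and without both A libraries it was -0.71 (adjusted p 0.0181).

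Lefty2 (ENSMUSG00000066652.5, chromosome 1, 180893108 to 180899103, plus strand) was at 86.6, 58.7 and 68.6 CPM in WT and at 31.9, 68.0 and 41.3 CPM in the mutant. Mutant B lay within the WT range and the other mutant libraries below it. The log2FC of -0.60 (SE 0.21, adjusted p 0.0799) missed the threshold. It was -0.95 (adjusted p 0.00448) without mutant B, -0.38 (adjusted p 0.139) without mutant A, -0.22 (adjusted p 0.501) without both A libraries, and -0.28 (adjusted p 0.465) with the chromosome 1 median removed. With the counts of Lefty1 and Lefty2 added into 1 feature, the log2FC was -0.83 (adjusted p 0.0142). Both Lefty genes were highest in replicate A among the WT libraries and in replicate B among the mutant libraries.

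Cer1 (ENSMUSG00000038192.5, chromosome 4, 82881751 to 82885148, minus strand), which encodes a secreted antagonist of Nodal, BMP and Wnt ligands that marks anterior visceral endoderm, had 0 counts in all 6 libraries. Low counts in the table were mostly even, as if each pair of mates counted as 2, so a floor of 6 counts per library was used. It equals 3 pairs and corresponds to 0.262 to 0.332 CPM, below which a level of Cer1 was not detectable at this depth. Such floors cover counting error only.

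Smad7 (ENSMUSG00000025880.11, chromosome 18, 75367529 to 75395935, plus strand), an inhibitory Smad induced by TGF-beta family signals, was at 107, 83.7 and 99.6 CPM in WT and at 93.9, 155 and 138 CPM in the mutant. Mutant libraries B and C were above all WT libraries, and mutant A was within their range. The log2FC of 0.41 (SE 0.15) was not called (adjusted p 0.0833). Without mutant A it was 0.60 (adjusted p 0.000391), and the gene was then called. Skil (ENSMUSG00000027660.16, chromosome 3, 31095058 to 31122577, plus strand), which encodes the Smad corepressor SnoN, was at 217, 263 and 218 CPM in WT and at 211, 219 and 231 CPM in the mutant. The groups overlapped, with a log2FC of -0.08 (SE 0.09, adjusted p 0.644).

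**Figure D2:**
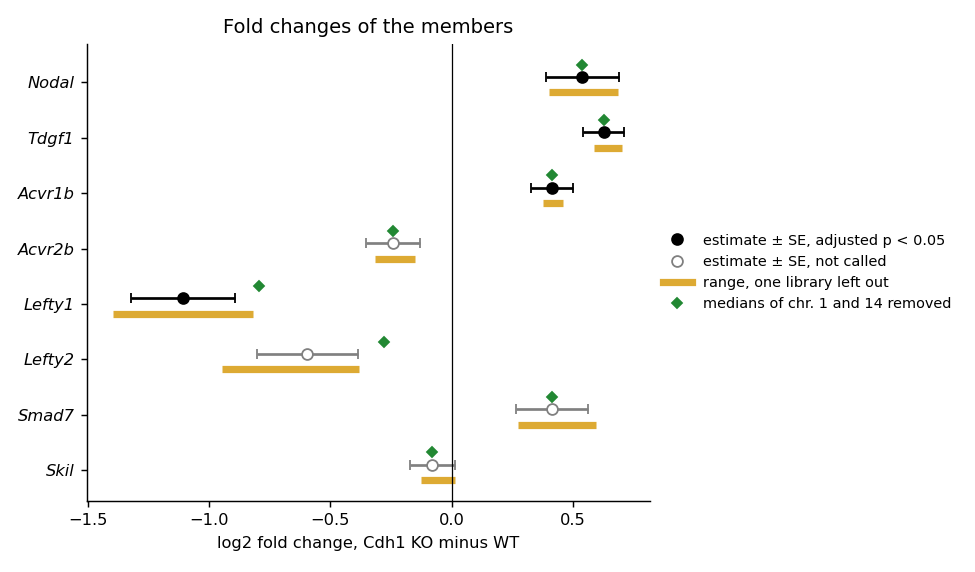
Log2FC (log2 fold change), mutant minus WT (horizontal axis), of the 8 tested members with its SE (points, filled in black where adjusted p is under 0.05), the range over the 6 fits that each leave out one library (yellow bars), and the estimate after the medians of chromosomes 1 and 14 are removed (green diamonds). Removing the chromosome medians moves Lefty1 from -1.11 to -0.79 and Lefty2 from -0.60 to -0.28 and leaves the members on other chromosomes in place.

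The balance between the ligand and its inhibitors was described by ratios within each library, which do not depend on the scaling between libraries. These ratios were chosen after the levels had been seen and carry no test. Per exon base, Lefty1 had 2.84, 2.33 and 1.88 counts for each count of Nodal in WT libraries A, B and C, and 0.800, 0.972 and 0.516 in mutant libraries A, B and C. Every WT library thus had more Lefty1 than Nodal per exon base and every mutant library had less. The mean ratio was 2.35 ± 0.477 in WT and 0.763 ± 0.231 in the mutant, a 3.08-fold difference. For Lefty2 over Nodal the ratio was 1.65, 1.60 and 1.39 in WT and 0.605, 0.954 and 0.532 in the mutant, again without overlap. Both Lefty genes lie on chromosome 1, whose median was lower in the mutant (log2 -0.33 to -0.29), and Nodal lies on chromosome 10. The ratios were not adjusted for this, so the side of 1 on which the mutant values nearest to 1 fall is uncertain. The ratio of Lefty1 to Lefty2 was 1.51 ± 0.188 in WT and 1.10 ± 0.192 in the mutant, with the closest libraries at 1.36 (WT C) and 1.32 (mutant A).

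**Figure D3:**
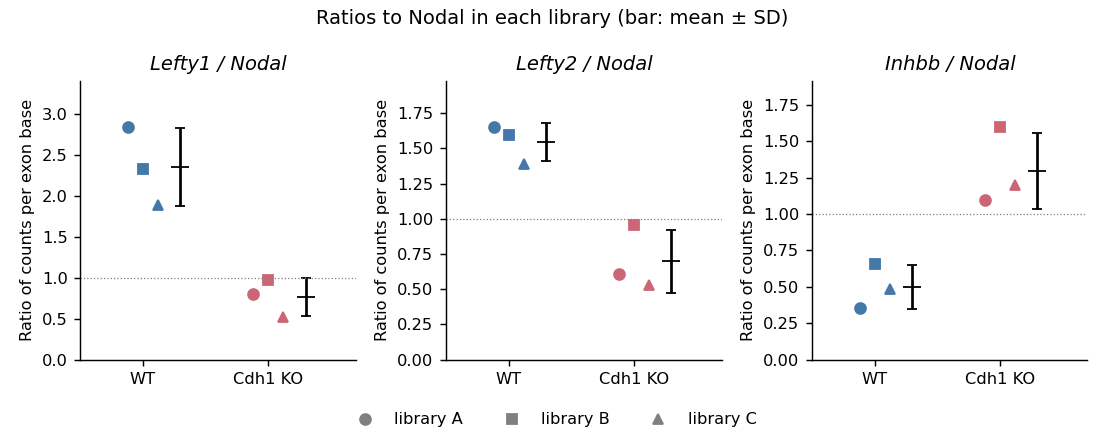
Ratio of counts per exon base of Lefty1, Lefty2 and the activin subunit gene Inhbb to Nodal (vertical axes, from 0) in each WT (blue) and Cdh1 mutant (red) library (circles A, squares B, triangles C), with the mean ± SD in black and a dotted line at a ratio of 1. Both Lefty ratios lie above 1 in every WT library and below 1 in every mutant library, and the Inhbb ratio does the opposite. The ratios are not adjusted for the lower median, in the mutant, of chromosome 1, which carries both Lefty genes and Inhbb.

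Compared per length, as transcripts per 1000000 (TPM), the order of the members differed between the genotypes. In WT, Tdgf1 stood at 1695 ± 17.2 TPM, followed by Lefty1 at 112 ± 37.7, Skil at 87.1 ± 10.7, Lefty2 at 72.7 ± 15.5, Smad7 at 55.5 ± 7.03, Acvr1b at 50.3 ± 3.95, Nodal at 47.0 ± 8.55 and Acvr2b at 37.1 ± 5.26 TPM (SD, n = 3). Below Tdgf1, the gap between neighbours in this order was smaller than the larger of their SDs, except between Lefty2 and Smad7 and between Nodal and Acvr2b. Lefty2 was above Smad7 in every WT library, whereas Nodal was below Acvr2b in WT B. In the mutant, Tdgf1 stood at 2554 ± 237 TPM, followed by Skil at 80.2 ± 3.22, Smad7 at 72.0 ± 17.4, Nodal at 66.6 ± 12.4, Acvr1b at 65.2 ± 3.49, Lefty1 at 50.1 ± 16.3, Lefty2 at 46.6 ± 18.6 and Acvr2b at 30.4 ± 2.52 TPM. Here the gap between neighbours from Skil down to Acvr2b was smaller than the larger of their SDs in every case. Lefty1 was the second of the members in WT and the sixth in the mutant by mean.

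The genes whose log2 CPM most resembled Nodal across the 6 libraries were Gpat4, Glis2, Midn and Zkscan16, with Pearson correlations from 0.997 to 0.980 over 6 libraries. Their log2FCs lay between 0.17 and 0.53. Those most like Lefty1 were Usp36, Wdr20, Gm11942 and Parp14, with correlations from 0.993 to 0.987 and log2FCs from -0.57 to -0.24. Among 12847 genes averaging 50 counts or more, 64 had a correlation over 0.95 with Nodal and 62 with Lefty1. The 6 points share the genotype difference, so these values are a description only.

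The remainder of the pathway was examined through 45 listed genes, of which 39 had enough counts to be tested. Of these 11 were called, 9 higher and 2 lower, where 13.3% of all tested genes were called. The count fell to 5 without WT A, to 7 without WT B and to 6 without mutant C. The median log2FC of the 39 genes was 0.14. The calls fell in every group of the list other than the signal transducers.

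**Figure D4:**
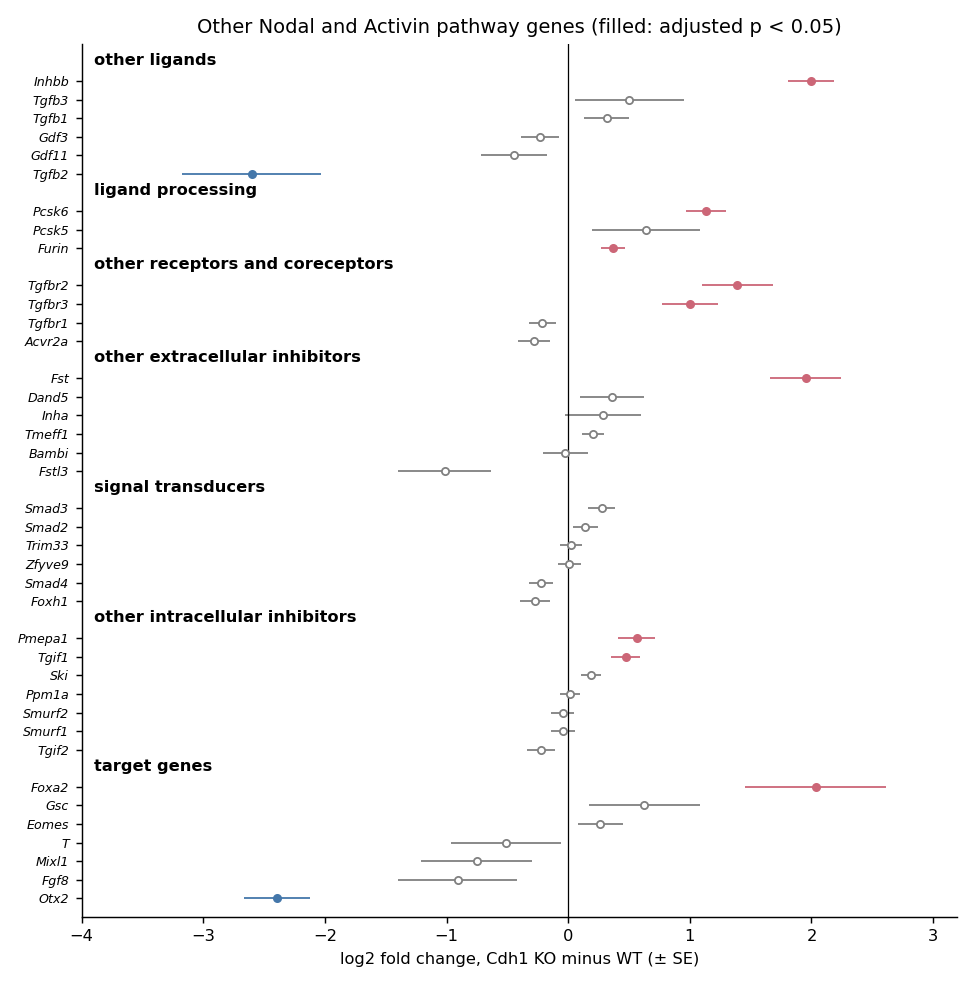
Log2FC (log2 fold change), mutant minus WT (horizontal axis), with SE, of the 39 tested genes of the wider pathway, grouped by role (vertical axis). Filled points passed an adjusted p of 0.05 (red higher, blue lower), open points did not. The 6 signal transducers lie between -0.28 and 0.28, and the extremes are Tgfb2 at -2.60 and Foxa2 at 2.03. Tgfb2 has 4 counts in each of mutant A and B, under the floor of 6, and the WT counts of Foxa2 are at the floor.

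Among 8 other ligand genes, 6 were tested, 1 was called higher and 1 lower. Inhbb, which encodes the beta B subunit shared by activin B and inhibin B, was at 32.004, 41.3 and 41.1 CPM in WT and at 99.8, 196 and 160 CPM in the mutant. Every mutant library was far above the highest WT library, with replicate A again the lowest of the mutant group. Inhbb rose by a log2FC of 1.99 (SE 0.19, adjusted p 9.2e-06), and it lies on chromosome 1, whose median was lower in the mutant. With that median removed the log2FC was 2.31 (adjusted p 3.9e-06). Per exon base, Inhbb stood at 0.497 ± 0.150 of the Nodal level in WT and at 1.30 ± 0.262 in the mutant.

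Inhba, the gene of the beta A subunit, had 4 to 10 counts in the WT libraries and 2 in each mutant library and was not tested. Tgfb2, a TGF-beta ligand gene also on chromosome 1, fell from 2.85 ± 1.37 CPM to 0.468 ± 0.469 CPM (log2FC -2.60, SE 0.57, adjusted p 0.00697). It had 4 counts in each of mutant A and B, under the floor of 6. With the chromosome 1 median removed its log2FC was -2.30 (adjusted p 0.0188). Tgfb2 was highest in WT A, without which it had an adjusted p of 0.0664, and its log2FC was -1.82 (adjusted p 0.0785) without both A libraries. Gdf3, a Nodal-related ligand that also uses Tdgf1, was at 51.3 ± 6.52 CPM and 43.5 ± 10.9 CPM (adjusted p 0.384), and Tgfb1 at 7.55 ± 0.706 CPM and 9.40 ± 1.55 CPM (adjusted p 0.312). Gdf1 was listed at 0 in all libraries, and all of its exon bases lie under Cers1 on the same strand, so its reads cannot be assigned.

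Nodal and the activins are made as precursors that proprotein convertases cut. Of 3 convertase genes, 2 were called higher. Pcsk6, the gene of PACE4, was at 43.4, 41.9 and 59.7 CPM in WT and at 80.8, 105 and 131 CPM in the mutant. The groups were separated, and Pcsk6 rose by a log2FC of 1.13 (SE 0.16, adjusted p 0.000314). Furin rose from 42.4 ± 3.12 CPM to 54.6 ± 1.88 CPM (log2FC 0.37, adjusted p 0.0229), and this call was lost at an adjusted p of 0.120 without WT A, 0.0897 without WT B, 0.0730 without mutant C and 0.130 without both A libraries. Pcsk5 was at 0.787 ± 0.295 CPM and 1.22 ± 0.0961 CPM (adjusted p 0.398).

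Of 6 other receptor and coreceptor genes, 4 were tested and 2 called higher, both TGF-beta receptors at a low level. Tgfbr2 rose from 2.02 ± 0.516 CPM to 5.30 ± 1.21 CPM (log2FC 1.39, adjusted p 0.00509). Tgfbr3, the coreceptor betaglycan, rose from 5.54 ± 1.45 CPM to 11.1 ± 2.50 CPM (log2FC 1.003, adjusted p 0.00884), with an adjusted p of 0.0545 without WT A and 0.0555 without mutant C. The type II receptor gene Acvr2a was at 26.2 ± 3.61 CPM and 21.5 ± 1.58 CPM (adjusted p 0.192). Tgfbr1, the TGF-beta type I receptor gene, was at 54.9 ± 4.54 CPM and 47.4 ± 5.41 CPM (adjusted p 0.240). Acvr1c and Cfc1, an alternative type I receptor and a coreceptor related to Tdgf1, had at most 5 counts in any library, which is under the floor.

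Among 6 other extracellular or membrane inhibitors, 1 was called. Fst, which encodes the activin-binding protein follistatin, was at 1.80, 1.67 and 2.101 CPM in WT and at 4.64, 9.35 and 7.52 CPM in the mutant. It rose by a log2FC of 1.95 (SE 0.29, adjusted p 0.000399), a size close to that of Inhbb, and mutant A was the lowest of the mutant libraries for both genes. Tmeff1 was at 115 ± 8.57 CPM and 132 ± 9.24 CPM (adjusted p 0.166), and the pseudoreceptor gene Bambi at 8.001 ± 0.139 CPM and 7.88 ± 1.32 CPM (adjusted p 0.956). Fstl3, named after its values were seen, was called lower without mutant A (log2FC -1.37, adjusted p 0.0247) and had an adjusted p of 0.0974 with all libraries. The annotation places 47.3% of its exon bases under Prss57 on the opposite strand.

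The signal transducers Smad2, Smad3, Smad4, Foxh1, Zfyve9 and Trim33 were all tested and 0 were called by edgeR, DESeq2 or limma-voom, with 3 at an unadjusted p under 0.05 in edgeR. Their groups overlapped except for Smad3. Trim33, a nuclear Smad partner, was at 157 ± 2.62 CPM and 160 ± 14.2 CPM. Smad4, the common Smad, was at 103 ± 8.39 CPM and 88.1 ± 8.38 CPM (adjusted p 0.154). Of 7 other intracellular inhibitors, 2 were called higher. Tgif1, a homeodomain corepressor, rose from 127 ± 17.9 CPM to 176 ± 24.8 CPM (log2FC 0.47, adjusted p 0.0151). Pmepa1, a target and inhibitor of TGF-beta signalling whose groups overlapped between WT C and mutant A, rose from 23.4 ± 4.55 CPM to 34.5 ± 5.37 CPM (log2FC 0.56, adjusted p 0.0235). Each of these calls was lost without WT A (adjusted p 0.0857 for Tgif1 and 0.116 for Pmepa1), WT B (0.102 and 0.130), mutant B (0.0733 and 0.0880) and mutant C (0.0773 and 0.108). Ski was at 160 ± 9.92 CPM and 182 ± 4.26 CPM (adjusted p 0.160) and the phosphatase gene Ppm1a at 119 ± 6.12 CPM and 120 ± 4.62 CPM (adjusted p 0.936).

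Of 9 genes listed as targets of the pathway, 7 were tested, 1 called lower and 1 higher. Otx2, a homeobox gene of the epiblast and anterior neural tissue, was at 35.3, 25.7 and 34.8 CPM in WT and at 2.76, 6.86 and 8.48 CPM in the mutant (log2FC -2.39, adjusted p 4.2e-05). It lies on chromosome 14, whose median was higher in the mutant, and with that median removed its log2FC was -2.93 (adjusted p 9.8e-06).

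Foxa2, an endoderm transcription factor, had at most 6 counts in any WT library, the floor, and 20, 12 and 32 counts in the mutant libraries. The mutant mean of 1.08 CPM was 3.71 times the mean floor of the WT libraries, 0.291 CPM, and mutant B was at 0.524 CPM. The call of Foxa2 (adjusted p 0.0298) was lost without WT A (0.108), WT B (0.0958), WT C (0.112), mutant C (0.180) and both A libraries (0.0997). It was also lost in limma-voom, so that 6 of 15 alternative fits with a value for the gene did not call it. Eomes was at 10.03 ± 2.38 CPM and 12.01 ± 0.380 CPM (adjusted p 0.404), and Mixl1 at 1.41 ± 0.204 CPM and 0.828 ± 0.438 CPM (adjusted p 0.325). The mesendoderm targets Gsc and T were near 1 CPM in both genotypes, and Lhx1 and Fgf5 had too few counts to be tested.

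Markers of other cell types were read beside these genes, because some members are also expressed in endoderm. The labelled cell type was borne out by stem cell markers, with Pou5f1 between 423 and 497 CPM in WT and between 441 and 553 CPM in the mutant, and 0 of 6 such markers were called by edgeR, DESeq2 or limma-voom (1 at an unadjusted p under 0.05 in edgeR). Of 10 endoderm markers 8 were tested and 7 were called higher by edgeR (Gata6, Gata4, Sox17, Sox7, Foxa2, Pdgfra and Dab2), where 7.6% of all tested genes were. DESeq2 called 6 of the list and limma-voom 6. The WT counts of Foxa2 were at the floor, and its call was lost without several single libraries. The groups overlapped for Dab2. The summed level of the list was 43.8 to 62.6 CPM in WT and 102 to 182 CPM in the mutant. Gata4 and Sox7 lie on chromosome 14, whose median was higher in the mutant (log2 0.54 to 0.55), and these levels are not adjusted for it. Afp had at most 2 counts in any library, and Ttr had 70 counts in WT A, 25 in mutant A and at most 2 elsewhere. Of 9 fibroblast markers 6 were tested, 1 was called higher (Fbn1) and 1 lower (Col1a1). The list summed to 44.6 to 59.6 CPM across WT libraries and to 51.2 to 68.6 CPM across mutant libraries. Mean Fbn1 rose from 15.2 to 36.4 CPM, whereas mean Col1a1 fell from 12.5 to 4.49 CPM. Fbn1 had the highest level of the list in every mutant library, so the sum does not give the direction of the other markers. Dcn and Postn were at 0 counts in WT B and mutant libraries B and C and at 6 to 18 counts in the A libraries. Col3a1 had 114, 12 and 20 counts in WT A, B and C and 42, 2 and 2 in mutant A, B and C. Col1a2 had 102, 36 and 22 counts in WT and 60, 10 and 12 in the mutant. By CPM, Fbn1 was instead highest in library C of each genotype. Of 6 mesoderm markers 4 were tested and 0 called by the same tools (1 at an unadjusted p under 0.05 in edgeR), at summed levels of 5.49 to 8.99 CPM in WT and 3.81 to 5.75 CPM in the mutant. The part of such cells in the members' differences was not tested. Without both A libraries 5 members were called, with Smad7 added at a log2FC of 0.67 (adjusted p 0.000835), and 8 of the other pathway genes.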

How the data were processed

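RNA of 6 libraries, 3 WT and 3 Cdh1 mutant, was sequenced from strand-specific libraries of total RNA, per the labels' protocols. The authors deposited unnormalized whole-number counts for each gene, with exon lengths. The submitters' processing notes name cutadapt 2.10, STAR 2.7.5b, featureCounts 2.0.1 and the build GRCm38; the strand setting and the handling of read pairs are not given in the sources used here. Columns were matched to samples by title, and 55141 of 55401 identifiers received a symbol. No exon base of the 9 members overlapped another gene in GENCODE M21. The deposited lengths equalled the M21 exon bases for Nodal (2095) and Acvr1b (4418). They were smaller for Tdgf1 (1932 against 2622), Skil (6720 against 9694), Lefty1 (1620 against 1758) and Lefty2 (2473 against 2611). The same held for Acvr2b (3573 against 3928) and Smad7 (4379 against 4521). The order of genes by TPM and the ratios between genes rest on the deposited lengths.

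edgeR 4.0.16 was run in R 4.3.3. filterByExpr (smallest count 10, smallest total 15) left 17325 genes, libraries were scaled by TMM, and a quasi-likelihood model with genotype as its only term was fitted to all libraries. Standard errors were derived from the F statistic. CPM is counts per 1000000 on the TMM scale, and TPM was computed from counts and exon lengths without TMM scaling. The procedure was tested on simulated counts, where the share of false calls exceeded the nominal threshold in most draws, so calls near the threshold are less certain than their adjusted p states. Alternatives were other scalings and filters, DESeq2 1.42.0, limma-voom (limma 3.58.1), halved counts, removal of the medians of chromosomes 1 and 14, the replicate letter as a block, leaving out each library and, added after the data were seen, leaving out both A libraries.

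The members, the gene lists and the tests were chosen with earlier results of these data known. All members were named. Marker lists were counted, with their summed level. Of each other pathway list, called genes and up to 2 uncalled genes of the highest level were named, and the 4 genes most correlated with Nodal and with Lefty1. A gene that was on the target list is not reported here and enters no list count. Genes outside this rule were chosen after their values were seen.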

Additional observations from a re-analysis of the deposited data

How the results depend on the processing

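The 4 called members numbered 3 to 5 when single libraries were left out in turn and 3 to 6 over all alternatives. Without mutant replicate B the number was also 4, but Nodal had lost its call and Lefty2 gained one. For the other pathway genes, leaving out 1 library gave 5 to 12 called genes in place of 11. The lowest counts were 5 without WT replicate A, 6 without mutant replicate C and 7 without WT replicate B. The fit without mutant replicate A had as many libraries as these and gave 12. Why the counts differed was not tested. At the stricter threshold of an adjusted p under 0.01, 7 of the other pathway genes were called. The log2 fold change of Cdh1 lay between -1.73 and -1.66 over 17 alternatives. Skil changed sign without WT replicate B, to 0.016 (adjusted p 0.948), with a lowest value of -0.13 when WT replicate A was left out, and was called in no alternative. Lefty2 passed the threshold without the low-count filter (adjusted p 1.7e-05), as did Smad7 (adjusted p 0.000336), and Smad7 also did so in DESeq2 (adjusted p 0.0493). In the unfiltered fit the log2 fold change of Lefty2 was -0.57, against -0.60 in the main fit. Adjusted p-values there were also far lower for Lefty1 (3.9e-18 against 0.00278) and higher for Acvr2b (0.347 against 0.182) and Skil (0.821 against 0.644). They are therefore not comparable with those of the main fit. The cause was not tested.

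The replicate letters matched the libraries of the genotypes only in part. The correlation of same-lettered deviations from the genotype means was 0.14 for A, -0.03 for B and 0.23 for C. WT replicates A and C each correlated best with the mutant library of the same letter. WT replicate B correlated best with mutant replicate A, at 0.12. With the replicate block 5 members and 11 other pathway genes were called, Lefty2 being added at a log2 fold change of -0.64 (adjusted p 0.0464). Depth limits Cer1, Acvr1c and Cfc1, which stayed under the floor of 6 counts in every library.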
